A study of Homo sapiens with 15 samples.

Results

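EIF4A1, the gene of the RNA helicase eIF4A1, and 9 genes of the cap-binding complex eIF4F, its relatives and its regulators were followed across a dose series of ZJ-101, a compound derived from a marine natural product. The set held the helicase genes EIF4A1, EIF4A2 and EIF4A3, the cap-binding gene EIF4E, the scaffold genes EIF4G1, EIF4G2 and EIF4G3, the helper genes EIF4B and EIF4H, and the inhibitor gene PDCD4. These are 10 of the 59608 genes in the table. EIF4A1 was picked because its values were higher at 500 nM than in DMSO. The other 9 were picked for their role, with earlier results of these data known. The contrasts of EIF4A1 with DMSO and its 500 nM values are therefore given as a description, with no test.

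The cells were MDA-MB-231, an established line of triple-negative breast cancer, grown in 2D in dishes. They received DMSO, the vehicle, or ZJ-101 at 0.5, 5, 50 or 500 nM for 6 h. Each of the 5 groups had 3 replicates, which the study calls biological, and this gave 15 libraries. All 4 doses were compared with the same 3 DMSO libraries, so these comparisons are not independent of each other. A single line was used, and the sources name no further modification of it.

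eIF4F joins the capped end of an mRNA to the small ribosomal subunit. eIF4E binds the cap, eIF4G is the scaffold that also holds the poly(A)-binding protein and eIF3, and eIF4A unwinds RNA structure in the leader with help from eIF4B and eIF4H. eIF4A1 and eIF4A2 are close relatives in this complex, whereas eIF4A3 sits in the exon junction complex, which marks spliced mRNA in the nucleus. PDCD4 binds eIF4A and blocks it, and its loss is a common feature of tumours.

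The helicases share the motif that gave DEAD-box proteins their name, and the stretch around its codons is shown because it bears on which row a read can be assigned to. The windows of 60 bases below start 24 bases before the motif and come from the GENCODE 44 transcripts, with capitals marking each base that differs from EIF4A1.

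EIF4A1: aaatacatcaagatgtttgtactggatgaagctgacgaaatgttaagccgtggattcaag

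EIF4A1P10: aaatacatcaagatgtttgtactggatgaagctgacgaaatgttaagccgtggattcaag

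EIF4A2: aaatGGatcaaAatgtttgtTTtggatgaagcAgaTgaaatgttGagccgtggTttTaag

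EIF4A3: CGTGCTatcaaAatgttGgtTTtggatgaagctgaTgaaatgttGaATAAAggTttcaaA

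EIF4A2 differed from EIF4A1 at 10 of these bases and EIF4A3 at 19, whereas EIF4A1P10, a processed pseudogene of EIF4A1 on chromosome X, differed at 0. Over the 1217 bases that could be aligned, EIF4A1P10 was 97.0% identical to the main EIF4A1 transcript.

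Depth was even, with 12415519 to 15284762 reads on genes per library. Of the markers of the line, VIM, CD44, AXL, EGFR, MSN and CAV1 lay between 3471 and 18414 normalized counts in every library. ESR1, PGR and TFF1, markers of luminal cells that the line is known to lack, stayed at or below 32.7, and CDH1, GATA3 and ERBB3 lay between 83.2 and 206. PTPRC, CD3E, ALB and KRT20, markers of other cells, did not exceed 3.53, and PECAM1 lay between 201 and 321. Replicate 2 of 0.5 nM stood farthest from its group. Its root mean square log2 distance from its mates was 0.320, against 0.238 to 0.291 for the other 14 libraries. The differences of EIF4A3 and EIF4G3 from DMSO at 0.5 nM are also given without that replicate.

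EIF4A1 itself was listed at very low values. A normalized count here is a read count divided by the size factor of its library. The values were 12.5, 11.1 and 13.2 in the DMSO libraries, 27.8, 25.03 and 22.5 at 0.5 nM and 26.4, 17.8 and 31.9 at 5 nM. They were 27.9, 20.7 and 36.2 at 50 nM and 22.4, 45.5 and 34.4 at 500 nM. Every treated library lay above every DMSO library, and the 4 doses overlapped each other. The lowest 500 nM library, replicate 1, lay below each library at 0.5 nM.

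On the log2 scale with a pseudocount of 1, EIF4A1 was 0.97, 0.96, 1.11 and 1.35 above DMSO at 0.5, 5, 50 and 500 nM. These are values of the contrast it was picked on, or of contrasts that use the same DMSO libraries. The steps between the lower doses compare none of the libraries it was picked on, although the fit shares 1 estimate of the spread. From 0.5 to 5 nM EIF4A1 differed by -0.02 ± 0.27 (SE, adjusted p = 0.99, limma over all genes), and from 5 to 50 nM by 0.15 ± 0.27 (adjusted p = 0.83, limma). The 95% intervals of these steps ran from -0.59 to 0.56 and from -0.42 to 0.73. In 23 of 25 alternatives EIF4A1 had an adjusted p for these steps. Over these 23 the first step ran from -0.19 to 0.21 and the second from -0.07 to 0.35. Both changed sign, and neither passed in any.

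Few reads stood behind these values. EIF4A1 held 37 reads over the 3 DMSO libraries, with an exact 95% Poisson interval of 26.1 to 51. The sums were 75 reads at 0.5 nM (58.99 to 94.01), 80 at 5 nM (63.4 to 99.6), 79 at 50 nM (62.6 to 98.5) and 106 at 500 nM (86.8 to 128). These intervals cover counting error only, and reads without molecular identifiers are not independent molecules.

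**Figure D1:**
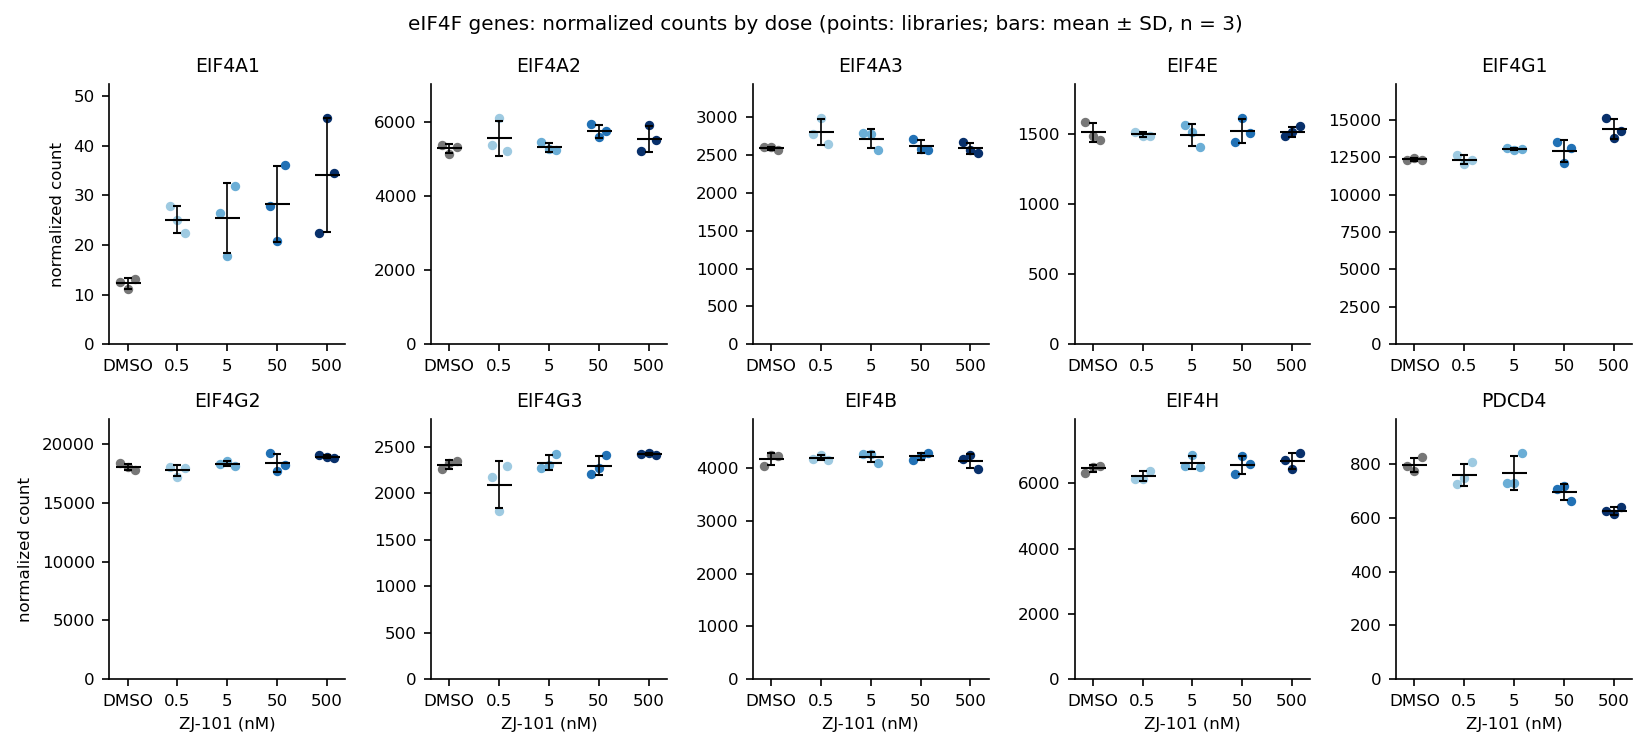
Normalized counts (y axis, each panel from 0 on its own scale) of the 10 genes by group (x axis, DMSO and ZJ-101 in nM). Points are libraries, and bars are the mean ± SD of 3 libraries. EIF4A1 lies between 11.1 and 45.5, whereas EIF4A2 lies between 5144 and 6098. PDCD4 goes from 773 to 827 in DMSO to 613 to 641 at 500 nM.

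The other members were far higher. By normalized counts in DMSO per kilobase of the main transcript that belong to no other gene, the order was EIF4G2 at 4765 ± 70.4 (SD, n = 3), EIF4A2 at 2929 ± 69.5, EIF4H at 2520.2 ± 44.5, EIF4G1 at 2284 ± 16.9 and EIF4B at 1231 ± 34.1. EIF4A3 followed at 1026 ± 8.10, EIF4E at 623 ± 28.1, PDCD4 at 373 ± 12.8 and EIF4G3 at 361 ± 7.08. PDCD4 and EIF4G3 did not differ beyond their spread, and the other neighbours in this order were farther apart than their SDs. The place of PDCD4 depends on the strand setting, which is unknown, since counting only overlaps on its own strand would leave it 3415 bases in place of 2138 and a level of 233 ± 8.02 (SD, n = 3), below EIF4G3. The main EIF4A1 transcript has no such bases. Over the bases of all its transcripts that belong to no other gene, EIF4A1 came to 4.49 ± 0.384 normalized counts per kilobase. The order of the other members also depends on this choice of bases. Over all transcripts, EIF4G2 came to 2165 ± 32.0 (SD, n = 3), EIF4G1 to 1411 ± 10.4, EIF4H to 1112 ± 19.6 and EIF4A2 to 1050 ± 24.9.

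The annotation of the EIF4A1 locus bears on what its row can hold. In GENCODE 44 on hg38, the gene (ENSG00000161960.16) lies on the forward strand at chr17:7572824-7579006, and its main transcript has 11 exons with 1758 bases. The lncRNA ENSG00000264772 covers 99.9% of these bases on the same strand, and the readthrough gene SENP3-EIF4A1 covers 83.5%. None, 0 of 1758, is free of another gene. Counting all transcripts, EIF4A1 has 5199 exon bases, of which 2733 in 11 stretches belong to EIF4A1 alone, and each of these stretches lies inside an intron of the main transcript, between intron 1 and intron 7.

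Intron 7 shows the arrangement. The run below is chr17:7577468-7577588 on the forward strand of hg38, with the last 20 bases of exon 7 and the first 20 of exon 8 in lower case and the 81 bases of intron 7 in capitals, which are exonic only in other EIF4A1 transcripts and belong to no other gene.

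EIF4A1 intron 7: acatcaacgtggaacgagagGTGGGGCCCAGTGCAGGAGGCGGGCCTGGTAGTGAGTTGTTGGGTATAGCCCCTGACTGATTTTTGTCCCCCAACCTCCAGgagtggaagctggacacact

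Where a counting tool leaves out reads that fall on more than one gene, as htseq-count does by default, a read inside an exon of the main EIF4A1 transcript would go to no gene under this annotation. The counting mode, the strand setting and the number of the GENCODE release are not given in the sources used here, and the dates in the methods of the study are earlier than GENCODE 44, so the annotation behind the counts was probably another. Genes with full overlap in GENCODE 44 differed widely in their counts. PFDN5, QRICH1 and PYURF, named after their values had been seen, have no base of the main transcript to themselves in it either and had means of 1711, 1626 and 1310 normalized counts. They are the highest of 38 such genes, whose median is 47.4 beside 433 for all 12633 genes compared. Only tested genes, with a mean of at least 10, were compared, so such genes with fewer counts are left out. CD68, which lies next to EIF4A1, also has no such base, or 87 by its own strand alone, and had a mean of 0.206. Of the 38, 31 also have no such base when only overlaps on the same strand are counted. The part of this overlap in the EIF4A1 values was not tested.

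**Figure D2:**
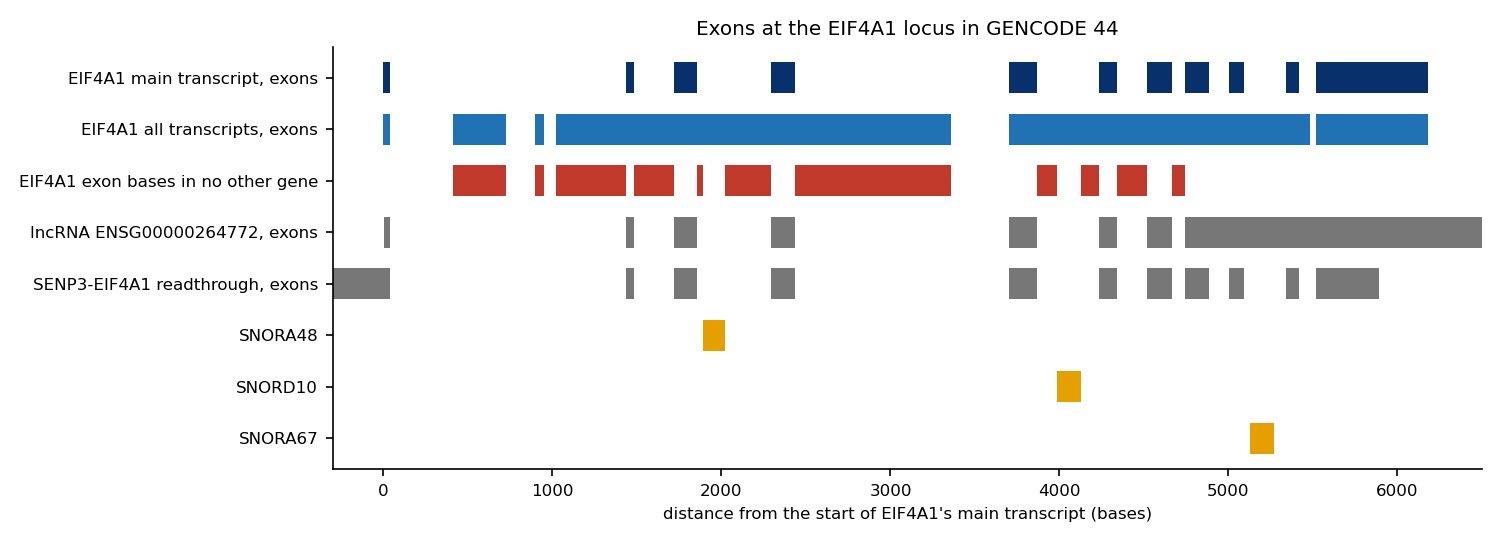
Exons at the EIF4A1 locus in GENCODE 44, by distance in bases from the start of the main EIF4A1 transcript (x axis). Blue shows EIF4A1, red the 2733 exon bases of EIF4A1 that belong to no other gene, grey the lncRNA and the readthrough gene, both of which go on beyond the plot, and orange the 3 small nucleolar RNAs within introns. No red block lies on an exon of the main transcript.

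Of the other rows that overlap EIF4A1 or lie directly upstream of it, only SENP3 was high enough to be tested, and no row could be matched to the lncRNA ENSG00000264772. SENP3 encodes a SUMO protease and held 453, 479 and 426 normalized counts in DMSO and 507, 487 and 538 at 500 nM, and its 500 nM libraries lay above those of DMSO without passing the test (log2 change 0.17 ± 0.07 (SE), adjusted p = 0.091, limma). The readthrough gene SENP3-EIF4A1 held 26 reads over all 15 libraries and at most 4.005 normalized counts. SNORA48, SNORA67 and SNORD10, small nucleolar RNAs of the EIF4A1 introns, had 0 reads in every library of this poly-A RNA. All of their bases also lie in exons of EIF4A1, so these zeros do not bound their level. Beyond the locus, MPDU1, FXR2, TNFSF12, TNFSF13 and SOX15 changed by 0.17, -0.08, -0.22, -0.10 and 0.14 at 500 nM against DMSO on the log2 scale, and 0 of these 5 passed the test, with 17.8% of all genes called there.

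Of 13 EIF4A1 pseudogenes in the table, 3 had a mean of at least 1 normalized count. EIF4A1P10 held 304, 318 and 325 in DMSO and 336, 354 and 333 at 500 nM, far more than EIF4A1 itself. Its 500 nM libraries lay above those of DMSO, with a log2 change of 0.11 ± 0.08 (SE) that did not pass the test (adjusted p = 0.42, limma). EIF4A1P2, 96.4% identical to EIF4A1, lay between 8.12 and 19.6 over all libraries with a log2 change of 0.04 ± 0.31 (SE) at 500 nM, and EIF4A1P4, 95.1% identical, did not exceed 5.10. Which row, if any, holds the reads of EIF4A1 mRNA that fit a pseudogene equally well cannot be read from these counts.

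**Figure D3:**
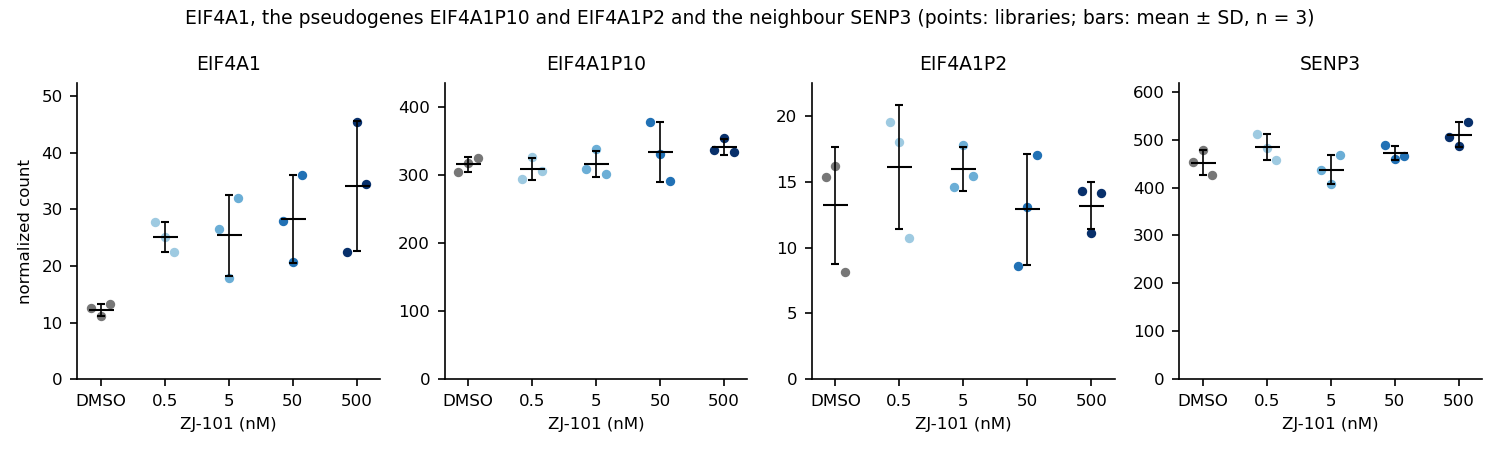
Normalized counts (y axis from 0, scale per panel) by group (x axis, DMSO and ZJ-101 in nM) of EIF4A1, its pseudogenes EIF4A1P10 and EIF4A1P2, and the upstream gene SENP3. Points are libraries and bars the mean ± SD of 3 libraries. EIF4A1 at 11.1 to 45.5 is well below EIF4A1P10 at 290.4 to 378.

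The 9 members other than EIF4A1 were each tested against DMSO, and their calls are given beside the share of all genes called. The test was limma on log2 values over 13561 genes with a threshold of 0.05 on the adjusted p. Overlap between libraries of different groups is given as a description throughout, since its share over all genes was not counted. At 0.5 nM 0 of 9 passed, where 1.17% of all genes were called, and at 5 nM 0 of 9, where 2.18% were called. At 50 nM 0 of 9 passed against 6.00% of all genes (2.29% higher and 3.71% lower). At 500 nM 2 of 9 passed, EIF4G1 upward and PDCD4 downward, against 17.8% of all genes (7.69% higher and 10.1% lower). At an unadjusted p under 0.05, 2, 0, 2 and 2 of the 9 passed at 0.5, 5, 50 and 500 nM, beside 14.7, 12.9, 17.4 and 29.3% of all genes. The 2 at 0.5 nM became 0 without its replicate 2, where 12.7% of all genes passed. In bulk RNA a normalized count is relative to the rest of the library, and fewer cells of a type and less RNA per cell cannot be told apart.

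The steps between neighbouring doses gave no call among the members in limma. From 0.5 to 5 nM 0 of 10 members passed, where 0.118% of all genes were called, and from 5 to 50 nM 0 of 10, where 5.01% were. From 50 to 500 nM 0 of the 9 passed, where 2.28% of all genes were called. At an unadjusted p under 0.05 these steps gave 2, 1 and 2 of the 9 members other than EIF4A1, beside 7.96, 17.6 and 13.1% of all genes. Without replicate 2 of 0.5 nM they gave 0, 2 and 2, beside 5.90, 21.6 and 17.5%. edgeR's quasi-likelihood test on the recovered reads gave the same count of 0 for each step, and DESeq2 gave 0, 0 and 1, the last being EIF4G1.

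Of the helicases, EIF4A2, which shares the eIF4F role with EIF4A1, lay at 5379.5, 5144 and 5337 normalized counts in DMSO and at 5208, 5907 and 5501 at 500 nM, and the groups overlapped. Its 50 nM libraries, at 5933, 5585 and 5745, all lay above DMSO, with a log2 change of 0.12 ± 0.06 (SE) that did not pass the test (adjusted p = 0.25, limma). The gene lies at chr3:186783205-186789897 on the forward strand, and 95.7% of its main transcript belongs to no other gene. RFC4 overlaps its end on the other strand and lay between 953 and 1151 in all libraries.

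EIF4A3, the helicase of the exon junction complex (chr17:80134369-80147151, reverse strand), held 2601, 2603 and 2567 normalized counts in DMSO and 2671, 2563 and 2527 at 500 nM. The groups overlapped, with a log2 change of 0.00 and a 95% interval from -0.10 to 0.10 at 500 nM. At 0.5 nM its 3 libraries lay between 2649 and 2984 and thus above DMSO. That difference of 0.11 ± 0.05 (SE) did not pass the test (adjusted p = 0.29, limma), and it was 0.07 without replicate 2 of 0.5 nM.

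Whether the ratio of EIF4A1 to the other helicases differed at 50 nM from 0.5 and 5 nM was asked. These libraries had not been used to pick EIF4A1. DMSO is not part of this comparison, so it cannot show whether the helicases moved apart on treatment. The log2 ratio of EIF4A1 to EIF4A2 averaged -7.65 in the 50 nM libraries (SD 0.37, n = 3) and -7.71 in those of 0.5 and 5 nM taken as one set (SD 0.28, n = 6), a difference of 0.06 (exact permutation test, two-sided, p = 0.79, adjusted over 2 ratios 0.79). The log2 ratio of EIF4A1 to EIF4A3 was -6.52 ± 0.39 (SD, n = 3) against -6.74 ± 0.30 (SD, n = 6), a difference of 0.22 (exact permutation test, two-sided, p = 0.38, adjusted 0.76). Neither difference exceeded the spread between libraries. The first changed sign, to -0.02 and to -0.13, without replicate 2 of 5 nM and without replicate 3 of 50 nM, and it was 0.03 without replicate 2 of 0.5 nM.

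EIF4E, the cap-binding subunit (chr4:98879276-98929133, reverse strand), stayed close to DMSO. Its libraries lay at 1590.4, 1486 and 1462 normalized counts in DMSO and at 1485, 1513 and 1555 at 500 nM. The log2 changes at 0.5, 5, 50 and 500 nM were -0.01, -0.02, 0.01 and 0.01, with a 95% interval from -0.10 to 0.11 at 500 nM. The pseudogene EIF4EP2, 99.4% identical to the EIF4E transcript over 654 bases, lay between 165 and 246, and its log2 change at 500 nM was 0.08 ± 0.12 (SE).

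EIF4G1, the main scaffold, passed the test at the highest dose, where it rose. Its libraries lay at 12293, 12452 and 12295 normalized counts in DMSO and at 15094, 13776 and 14271 at 500 nM. No 500 nM library overlapped DMSO, and the log2 change was 0.22 ± 0.05 (SE, adjusted p = 0.0020, limma). At 5 nM the libraries, at 13133, 13012 and 13018, also lay above DMSO, but the log2 change of 0.08 ± 0.05 (SE) did not pass the test (adjusted p = 0.49, limma). At 50 nM the libraries, at 13525, 12103 and 13122, lay on both sides of DMSO (0.06 ± 0.05 (SE), adjusted p = 0.54, limma). From 50 to 500 nM the log2 change was 0.16 ± 0.05 (SE), which missed the threshold with an adjusted p of 0.093 in limma and passed it with 0.031 when replicate 2 of 0.5 nM was left out of the fit. EIF4G1 lies at chr3:184314495-184335358 on the forward strand and shares no exon base with another gene.

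The other scaffolds were measured as follows. EIF4G2, also called DAP5, lacks the part that binds eIF4E and takes part in initiation without it. It held 18364, 18039 and 17835 normalized counts in DMSO and 19093, 18925 and 18804 at 500 nM, which did not overlap, and the log2 change of 0.07 ± 0.04 (SE) did not pass the test (adjusted p = 0.29, limma). EIF4G3, a homolog of EIF4G1, held 2259, 2321 and 2348 in DMSO and 2427, 2431 and 2415 at 500 nM, also without overlap and also without passing (0.07 ± 0.06 (SE), adjusted p = 0.52, limma). At 0.5 nM EIF4G3 went down to 1808 in replicate 2 with 2177 and 2290.0 in the others, and its log2 change of -0.15 was -0.05 without that replicate. The rise of EIF4G1 was not tested against the changes of EIF4G2 and EIF4G3.

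The helpers were close to DMSO at all doses. EIF4B, which stimulates eIF4A and is a target of several kinases, held 4045, 4254 and 4236 normalized counts in DMSO and 4169, 4248 and 3988 at 500 nM, with overlap. Its log2 changes were 0.01, 0.01, 0.02 and -0.02 from the lowest to the highest dose, and over all 15 libraries its coefficient of variation of 2.14% was the smallest of the 10 members. EIF4B shares 11.98% of its main transcript with a lncRNA on the other strand, TNS2-AS1, and its pseudogenes EIF4BP7, EIF4BP6 and EIF4BP3, 97.1 to 97.7% identical to it, had means of 83.4, 34.1 and 11.3.

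EIF4H, related to EIF4B in function, held 6328, 6515 and 6535 normalized counts in DMSO and 6706, 6436 and 6922 at 500 nM. The groups overlapped, with a log2 change of 0.05 ± 0.04 (SE, adjusted p = 0.49, limma). Its pseudogene EIF4HP1 lay between 92.1 and 134, with a log2 change of 0.03 ± 0.12 (SE).

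PDCD4, the inhibitor of eIF4A, fell at the highest dose. Its libraries lay at 792, 773 and 827 normalized counts in DMSO, 727, 747 and 806 at 0.5 nM and 729, 729.99 and 841 at 5 nM. They lay at 707, 719 and 662 at 50 nM and at 626, 613 and 641 at 500 nM. The libraries of 50 nM and of 500 nM lay below all DMSO libraries, and those of 0.5 and 5 nM overlapped DMSO.

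At 500 nM the log2 change of PDCD4 was -0.35 ± 0.06 (SE, 95% interval -0.48 to -0.22, adjusted p = 0.00055, limma). At 50 nM it was -0.20 ± 0.06 (SE), which missed the threshold (adjusted p = 0.073, limma) and passed it in 3 of 25 alternatives. From 50 to 500 nM the log2 change was -0.15 ± 0.06 (SE, adjusted p = 0.30, limma), with no overlap of the libraries.

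PDCD4 lies at chr10:110871795-110900006 on the forward strand, and BBIP1, a gene on the other strand, covers 36.7% of its main transcript. BBIP1 lay at 152, 137 and 131 normalized counts in DMSO and 128, 116 and 147 at 500 nM, with overlap. Without a known strand setting, reads of BBIP1 and PDCD4 in the shared part cannot be told apart. PDCD4-AS1, a lncRNA at the start of the gene, lay between 7.21 and 20.3 and changed by -0.25 ± 0.32 (SE) at 500 nM on the log2 scale.

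**Figure D4:**
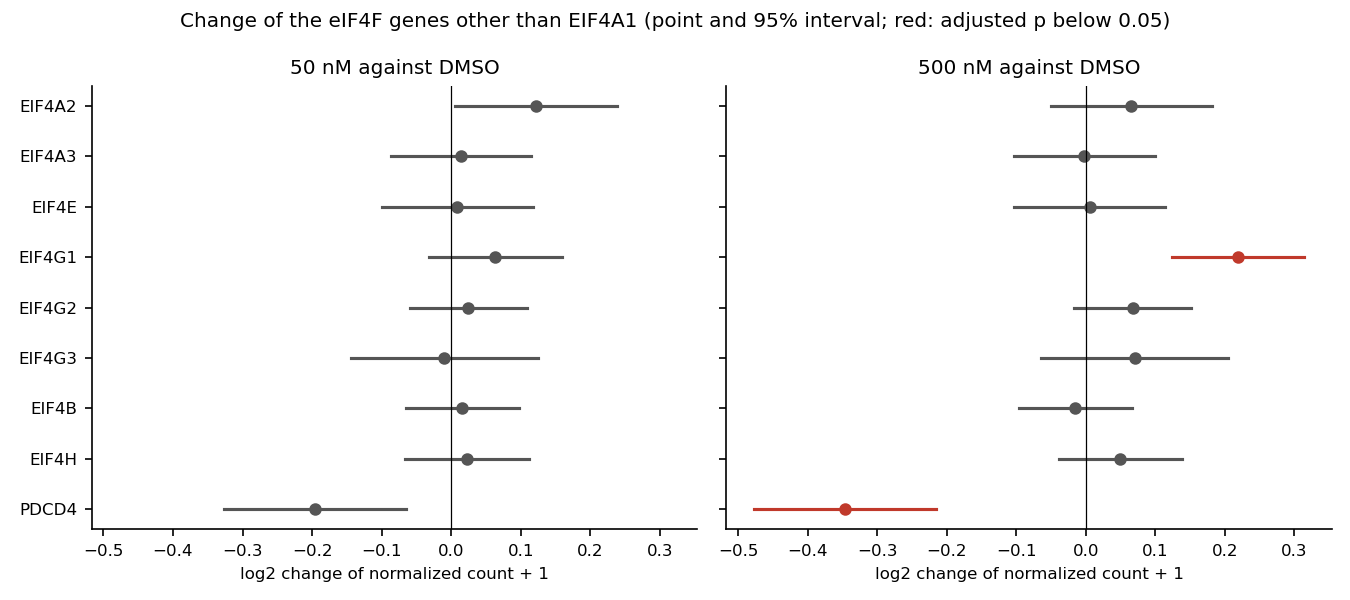
Change of the 9 members other than EIF4A1 (y axis) at 50 nM and 500 nM against DMSO, as the log2 change of the normalized count + 1 (x axis). Points are limma estimates from 3 libraries per group, lines are 95% intervals, and red marks an adjusted p below 0.05. EIF4G1 at 0.22 and PDCD4 at -0.35 are red at 500 nM, and no gene is red at 50 nM.

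Genes around eIF4F were read from 6 lists by role. At 500 nM 17.8% of all genes were called, 7.69% higher and 10.1% lower, and the counts below stand beside these shares. Of 11 tested cap-binding proteins and eIF4E partners, 1 rose at 500 nM and 0 fell. It was LARP1, which binds the cap of ribosomal protein mRNAs, with a log2 change of 0.26 ± 0.06 (SE, adjusted p = 0.0021, limma). Its libraries lay at 4914, 5021 and 4848 normalized counts in DMSO and at 6317, 5757 and 5690.4 at 500 nM, without overlap. The median log2 change of the list was 0.05, beside 0.00 for all genes.

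Of 10 tested poly(A)-binding proteins and partners, 1 rose and 1 fell at 500 nM, where 17.8% of all genes were called. LARP4, which binds poly(A) and its binding protein, went from 1801, 1672 and 1844 normalized counts in DMSO to 2252, 2205 and 2231 (0.33 ± 0.06 (SE), adjusted p = 0.00028, limma). It also rose at 50 nM (0.21 ± 0.06 (SE), adjusted p = 0.027, limma), a call that was lost without replicate 1 or 2 of DMSO or replicate 1 or 3 of 50 nM (adjusted p = 0.061, 0.16, 0.16 and 0.13), and with no filter on low genes (0.055). PAIP1, a partner of the poly(A)-binding protein that also binds eIF4A, went from 1808, 1858 and 1681 to 1577, 1504 and 1531 (-0.21 ± 0.05 (SE), adjusted p = 0.0048, limma). The list's median log2 change was 0.06.

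Of 18 tested kinases, ligases and regulators that act on eIF4F, 1 rose and 2 fell at 500 nM, where 17.8% of all genes were called. The median log2 change of the list was -0.01. DDIT4, an inhibitor of the mTORC1 kinase upstream of eIF4E, had the clearest fall, from 1227, 1225 and 1085 normalized counts in DMSO to 738, 922 and 858 at 50 nM and 825, 839 and 847 at 500 nM. No library at these doses overlapped DMSO, and the log2 changes were -0.49 at 50 nM (adjusted p = 0.00027, limma) and -0.49 at 500 nM (adjusted p = 0.00013, limma). MKNK1, whose kinase phosphorylates eIF4E on the eIF4G scaffold, rose by 0.24 ± 0.08 (SE, adjusted p = 0.041, limma). RPS6KA3, an RSK kinase, fell by 0.18 ± 0.06 on the log2 scale (SE, adjusted p = 0.042, limma). The last 2 were near the threshold, and each kept its call in 16 of 25 alternatives. MKNK1 was lost without replicate 2 or 3 of DMSO, 1 or 3 of 5 nM, or any replicate of 500 nM (adjusted p up to 0.21), with DESeq2 (0.078) and with no filter on low genes (0.073). RPS6KA3 was lost without any replicate of DMSO, replicate 1 or 2 of 5 nM, 3 of 50 nM, or 2 or 3 of 500 nM (adjusted p up to 0.18), and with no filter (0.089).

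The 14 eIF3 subunits gave 0 calls at 500 nM, where 17.8% of all genes were called. Their log2 changes ran from -0.07 to 0.30, with a median of 0.04. Of 15 tested genes of the exon junction complex and its partners in nonsense-mediated decay, 2 rose and 0 fell, beside the same 17.8%. SMG5, a decay factor, went from 2425, 2253 and 2329 normalized counts in DMSO to 2754, 2681 and 2694 (0.21 ± 0.04 (SE), adjusted p = 0.0017, limma). UPF1, the central helicase of that pathway, rose by 0.17 ± 0.05 (SE, adjusted p = 0.017, limma) and kept its call in 21 of 25 alternatives, with adjusted p = 0.057 without replicate 1 or without replicate 3 of DMSO and 0.062 and 0.053 without replicate 1 and replicate 3 of 500 nM. The median log2 change of the list was 0.06.

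Of 18 other tested helicases of mRNA, 4 rose and 0 fell at 500 nM, with a median log2 change of 0.05. The largest rises were those of DDX19A, a helicase of mRNA export, at 0.46 ± 0.12 (SE, adjusted p = 0.011, limma), and DHX33, a helicase linked to ribosome formation, at 0.34 ± 0.07 (SE, adjusted p = 0.0011, limma). DDX19A was lost without replicate 1 of DMSO (adjusted p = 0.055) and without replicate 1 of 500 nM (0.060), and 35.8% of its main transcript belongs to no other gene. These shares of 9.09, 20, 16.7, 0, 13.3 and 22.2% in the order of the lists lie around the 17.8% of all genes called at 500 nM. By direction, 7.69% of all genes were called higher and 10.1% lower, and the counts of rises and falls were not tested against these shares. At 50 nM, where 6.00% of all genes were called, only LARP4 and DDIT4 passed among the tested genes of the 6 lists, and at 0.5 and 5 nM 0 passed. DHX33 also passed at 50 nM without replicate 2 of 0.5 nM (log2 change 0.16, adjusted p = 0.043, against 0.19 with it).

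**Figure D5:**
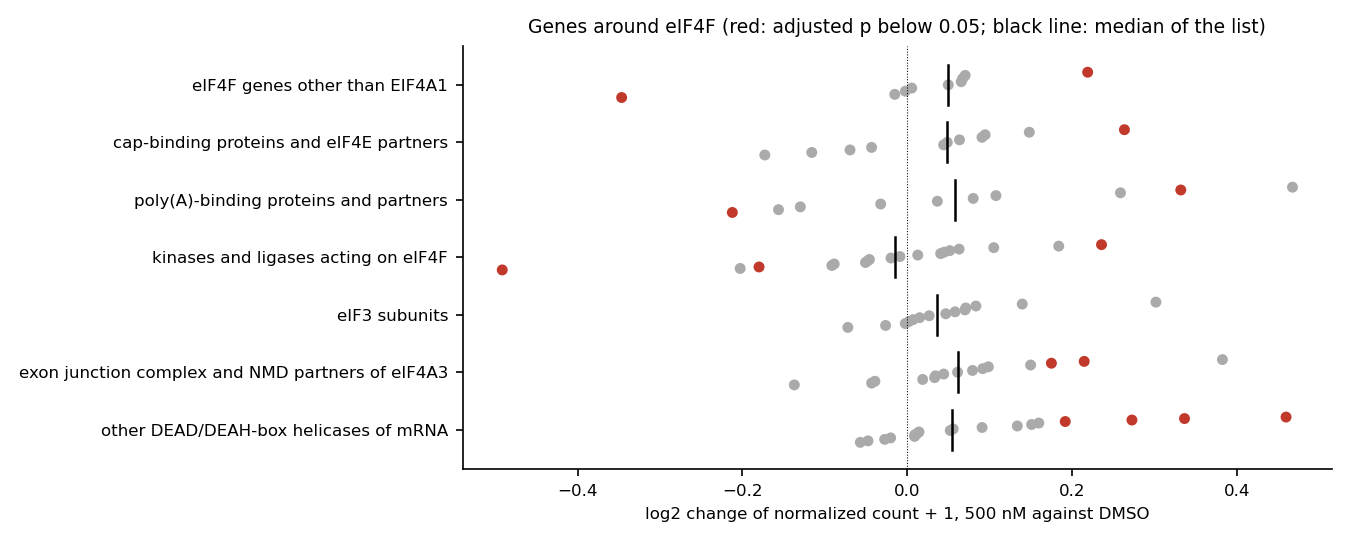
Log2 change of the normalized count + 1 at 500 nM against DMSO (x axis) for the members other than EIF4A1 and for 6 lists of genes by role (y axis). Each point is a gene, red points have an adjusted p below 0.05 and black lines are medians. DDIT4 at -0.49 and PDCD4 at -0.35 are the lowest red points, and DDX19A at 0.46 is the highest.

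The genes whose pattern over the 15 libraries was most like that of EIF4A1 were RBBP8, DPAGT1, LINC01410, PEAR1 and QTRT1, with Pearson r of 0.88, 0.82, 0.82, 0.81 and 0.81 on the log2 scale. This is a description of the same libraries on which EIF4A1 was picked. In RBBP8, a gene of DNA end resection, the group means went from 877 normalized counts in DMSO to 961, 954, 992 and 1026 at the 4 doses. LINC01410, the lowest of them, went from 20.3 to between 32.4 and 38.4 at the doses.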

How the data were processed

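RNA was measured in 15 libraries, with 3 replicates in each of 5 groups taken from the sample labels. The authors selected poly-A RNA, sequenced paired reads of 150 bases, used HISAT2 for alignment to hg38 and htseq-count for gene counts, and applied the size factors of DESeq2 to the libraries. The deposited signal values are these normalized counts. Versions, strand setting, counting mode and the GENCODE release number are not given in the sources used here. The line that names no gene (1 line) was excluded. Each library's smallest step gave back whole reads, and all values lay within 4.34e-05 of a whole read. Size factors were 0.916 to 1.13, and mitochondrial genes held 0.889 to 2.06% of reads.

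The main test was limma 3.58.1 (R 4.3.3) with a variance trend on log2(normalized count + 1), for 13561 genes with a mean of at least 10, all 5 groups in 1 fit, Benjamini-Hochberg over all genes and a threshold of 0.05. Fold changes on this scale understate changes of low genes. Ratios were tested by exact permutation (SciPy 1.17.1). Positions and overlaps came from GENCODE 44, and pseudogene identities from BLAST+ 2.17.0. The members and lists were chosen with earlier results of these data known. The rule for names takes all members, locus genes and pseudogenes with a mean of at least 1, up to 2 rises and 2 falls at 500 nM in each other list, and the 5 genes most like EIF4A1. PECAM1, ESR1 and the other markers served to check the cell line.

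Settings varied were the pseudocount (0.5 or 5), the filter on low genes (absent, or a mean of 50 or more), a block for the replicate number, TMM and equal-total scaling, edgeR 4.0.16 and DESeq2 1.42.0 on the recovered reads (2432 and 2203 genes called at 500 nM), the 6 libraries of a contrast alone, and each library left out. Applying them to the named genes of the lists was added after the data had been seen. No 2 replicates were duplicates, since their read counts differed by more than sampling noise (chi-square over its degrees of freedom, 2.05 to 16.6). The p-values measure the spread between replicates of 1 line.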

Additional observations from a re-analysis of the deposited data

How the results depend on the processing

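Each of 65 pairs of a member and a contrast was refitted under up to 25 alternatives, which gave 1623 values. Of these, 1618 stayed on their side of the threshold, 5 passed it only in the alternative, and 0 lost a call or reversed one. The DESeq2 values of EIF4A1, which had no adjusted p, were counted as staying. EIF4G1 and PDCD4 at 500 nM kept their calls in 25 of 25 alternatives each, with log2 changes of 0.18 to 0.25 and -0.37 to -0.32. At 50 nM against DMSO the count of members went from 0 to 1, PDCD4, in the 6 libraries alone (adjusted p = 0.036), and ranged from 0 to 1 when each library was left out, with PDCD4 called without replicate 2 of 0.5 nM (adjusted p = 0.044) and without replicate 3 of 5 nM (0.043). From 50 to 500 nM it went from 0 to 1, EIF4G1, with DESeq2 (adjusted p = 0.018), and ranged from 0 to 1 over the left-out libraries, with EIF4G1 called without replicate 2 of 0.5 nM (0.031). The cause of these changes was not tested. With the replicate block, 2 members passed at 500 nM, as without it, and 2506 genes were called against 2409. Samples with the same number did not deviate together (correlations of -0.085 to 0.096, 0 of 30 pairs over 0.1), so the numbers do not pair the samples. Counts over all genes moved by over 1.5 times in several settings. At 0.5 nM the 159 calls became 246 with DESeq2, 21 in the 6 libraries alone and 19 (without replicate 1 of DMSO) to 391 (without replicate 3 of 0.5 nM) over the left-out libraries. At 5 nM the 295 became 846 in the 6 libraries alone and 113 (without replicate 1 of DMSO) to 623. From 0.5 to 5 nM the 16 became 32 with DESeq2, 4 in the 6 libraries alone and 7 (without replicate 2 of 5 nM) to 25. The highest counts without 1 library, 623 at 5 nM, 25 from 0.5 to 5 nM, 1276 at 50 nM (from 814), 1129 from 5 to 50 nM (from 679) and 630 from 50 to 500 nM (from 309), all came without replicate 2 of 0.5 nM. The lowest for the last 2 were 424 (without replicate 3 of 5 nM) and 139 (without replicate 2 of 50 nM). The ratio of EIF4A1 to EIF4A2 ranged from -0.13 to 0.24 and that to EIF4A3 from 0.02 to 0.41 over the left-out libraries, and neither passed in any alternative. EIF4A1 held 11 to 45 reads a library. No strand or transcript can be read from counts per gene.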

Other observations

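EIF4A1 is not alone in having a main transcript that is wholly covered by other genes in GENCODE 44. Of 12633 tested genes with 1 entry there, 38 (0.301%) have no base of the main transcript to themselves. Tested genes have a mean of at least 10, so such genes with fewer counts are not among the 38. Their median mean of 47.4 normalized counts compares with 433 over all 12633, but their means reach 1711 in PFDN5. Where only overlaps on the same strand are counted, 31 of the 38 have none. The strand setting and the release used for counting are not given in the sources used here.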
